A study of Arabis alpina with 2 samples.

Results

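One-library G-to-T and C-to-A sites were single-base changes called in 1 of 2 genomic DNA libraries of Arabis alpina, a perennial in the family of Arabidopsis. They were the rows of either library's variant list with reference G and sample T, or reference C and sample A, on chromosomes 1 to 8, whose position was not listed with any base in the other library. A variant quality of 25 or more and at least 10 reads of coverage were required. This rule took 1261 of 28952 listed sites, 628 from the eop055 BC1F2 pool and 633 from the pep1-1 progenitor. The members were chosen by variant quality, coverage, base change and absence from the other list, so those values are a description. The rule set no limit on allele frequency (the alternative reads over all reads at a site), place along a chromosome or neighbouring sites. It still touches them, since quality depends on the alternative reads, coverage was computed as the alternative reads over the allele frequency, and positions in the other list were removed.

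Both libraries came from flower buds of the Pajares accession at the start of the reproductive stage under long days. The pool held plants of a BC1F2 family: the eop055 mutant had been selfed, crossed back to the line it was mutagenised from, pep1-1, and selfed again, and plants with the mutant phenotype were kept. The other library was pep1-1 itself, so the pep1-1 mutation is shared by both groups. Each group had 1 library and no replicate, and the sources used here do not give the number of plants per library. The lists held 14923 pool sites with a median coverage of 106 reads and 14029 progenitor sites with a median of 100 reads. Tests below compare reads within a library with a fixed value, 95% intervals are Wilson intervals, and both cover counting error only.

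A G-to-T change and a C-to-A change are one event read from either DNA strand. Guanine oxidised to 8-oxoguanine can pair with adenine, and this change is the one it leaves; it is known both as a mutation in living cells and as damage to DNA during extraction and shearing. A true heterozygous allele is centred on a frequency of 0.5, as is one that segregates without selection in a selfed backcross family, and a homozygous allele reaches 1. Alkylating mutagens give G-to-A or C-to-T changes, called mutagen-type here, which served as the comparison. The strand of the reads and the bases around each site were not analysed here, and the source of the changes was not tested.

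The 2 libraries gave nearly equal numbers of members from lists of unequal make-up. In the pool they were 25.6% of the 2453 one-library sites past the minimums on the chromosomes (95% interval 23.9 to 27.4%), where mutagen-type sites numbered 1339. In the progenitor they were 55.2% of 1147 such sites (52.3 to 58.0%), where mutagen-type sites numbered 235. With a quality minimum of 50 the share was 12.8% in the pool (11.3 to 14.6%), with 209 members, and 51.3% in pep1-1 (46.4 to 56.1%), with 203. Among sites listed in both libraries, G-to-T and C-to-A made up 12.5% in the pool (11.8 to 13.3%) and 12.8% in pep1-1 (12.02 to 13.6%).

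The quality minimum removed more G-to-T and C-to-A sites than it kept. Another 875 one-library sites of these types in the pool and 1054 in pep1-1 had enough coverage but a quality under 25. Their median allele frequency was 0.2045 in the pool and 0.228 in pep1-1. Just inside the minimum, and the deepest of its ties, the pool had G19439902T on chromosome 8 with quality 25.5 and 63 of 116 reads, and just outside it G35454909T on chromosome 7 with quality 24.5 and 60 of 138 reads. In the progenitor these were G14133888T on chromosome 2 (quality 25.5, 53 of 132 reads) and G20657292T on chromosome 2 (quality 24.5, 137 of 392 reads). The coverage minimum removed few, 1 pool and 27 progenitor sites that passed on quality. At that edge lay G20542731T on chromosome 8 (11 reads) and C29582950A on chromosome 2 (9 reads) in the pool, and G2806118T on chromosome 1 (10 reads) and G4222731T on chromosome 2 (9 reads) in pep1-1.

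Most members were carried by a minority of the reads at a thinly covered position. Their median allele frequency was 0.265 in the pool (quartiles 0.233 and 0.3125) and 0.3 in pep1-1 (0.257 to 0.375). The median coverage was 39 reads in the pool and 29 in pep1-1, and the median number of alternative reads was 10 (interquartile range 9 to 12) in the pool and 8 (7 to 11) in pep1-1. An allele frequency under 0.4 was found at 90.3% of pool members (87.7 to 92.4%) and 79.8% of pep1-1 members (76.5 to 82.7%). Frequencies were low in both libraries, with the pool's a little lower and its coverage higher.

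**Figure D1:**
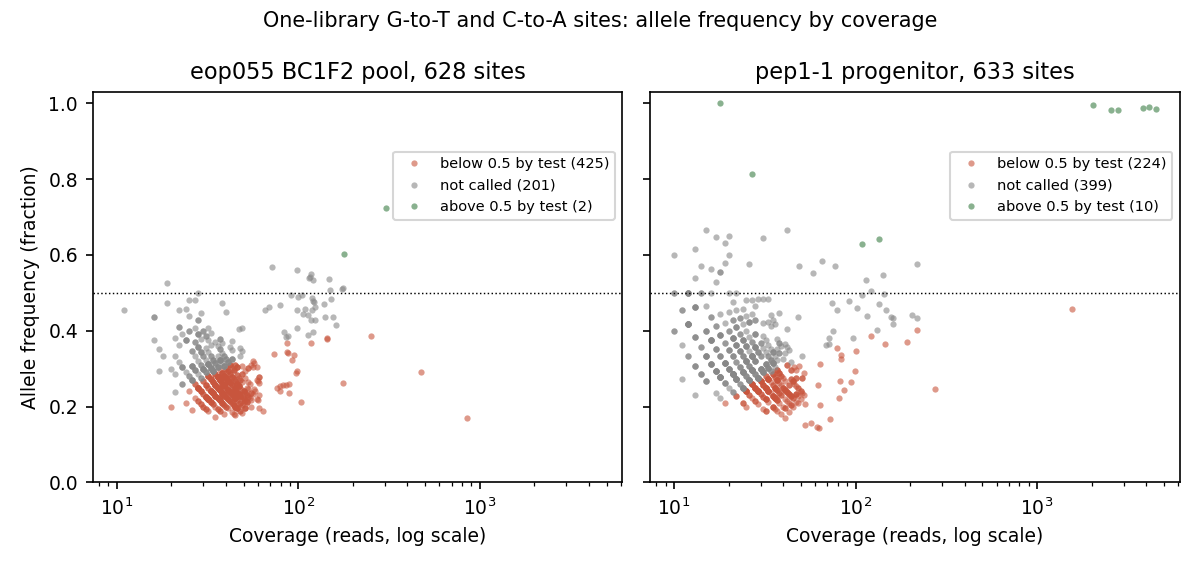
Allele frequency (fraction) against coverage (reads, log scale) of the 628 pool members (left) and 633 pep1-1 members (right), one point per site, coloured by the exact binomial test against 0.5 (dotted line). Most points of both libraries lie under 60 reads and under 0.4, and the progenitor also has 6 points above 0.98 from 2026 reads up.

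Typical members can be read from single sites. In the pool, C4192382A on chromosome 2, C29664791A on chromosome 3 and C48644327A on chromosome 4 lay nearest to the median, each with 9 of 34 reads, an allele frequency of 0.265 (95% interval 0.146 to 0.431). In the progenitor, C18899523A on chromosome 1 and G260085T and C34123453A on chromosome 2 did so, each with 9 of 30 reads (0.3, 0.167 to 0.479). The upper bounds lay below 0.5 in each of these 6 sites. The adjusted p of the exact binomial test described next was 0.0234 for the pool sites and 0.0907 for the pep1-1 sites, which missed the threshold of 0.05.

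At the low end, the pool had C17733403A on chromosome 4 at 0.171 (145 of 849 reads), G6412194T on chromosome 4 at 0.171 (6 of 35 reads) and G9798687T on chromosome 6 at 0.178 (8 of 45 reads). In pep1-1 were G17117230T on chromosome 2 at 0.143 (9 of 63 reads), G29642092T on chromosome 1 at 0.147 (9 of 61 reads) and C25214224A on chromosome 6 at 0.151 (8 of 53 reads). With the exception of the first, these sites had fewer than 10 alternative reads each.

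The exact binomial test asked of each site whether its reads departed from 0.5, two-sided, with Benjamini-Hochberg adjustment at 0.05 over all sites of the library past the minimums, unplaced sequences included. Among pool members, 425 of 628 (67.7%) lay below 0.5, against 20.9% of all 10934 pool sites tested, and 2 lay above, against 21.7%. Among pep1-1 members, 224 of 633 (35.4%) lay below, against 19.0% of all 9483 sites tested, and 10 lay above, against 23.0%. The depth limits these counts: of members under 20 reads, 0 of 9 in the pool and 1 of 122 in pep1-1 were called below, while of members with 20 to 59 reads 394 of 548 (71.9%) in the pool and 202 of 456 (44.3%) in pep1-1 were. Of the G-to-T and C-to-A sites listed in both libraries, with 20 to 59 reads, 62.3% of 284 in the pool and 24.2% of 248 in pep1-1 were called below. For the other one-library sites of that depth it was 19.0% of 496 in the pool and 24.1% of 141 in pep1-1. With Bonferroni adjustment 8 pool and 9 pep1-1 members stayed below 0.5, and the share of all sites under that adjustment was not computed.

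**Figure D2:**
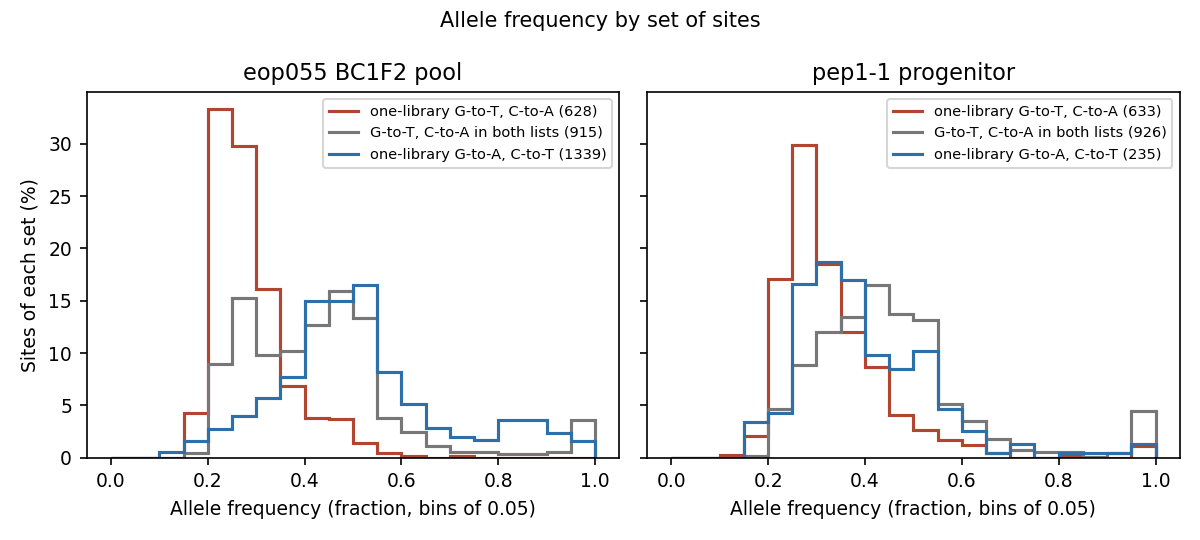
Share of sites (%) by allele frequency in bins of 0.05, for the pool (left) and the progenitor (right): members in red, G-to-T and C-to-A sites listed in both libraries in grey, and one-library G-to-A or C-to-T sites in blue, with the number of sites in brackets. Members peak between 0.2 and 0.3 in both libraries, whereas the pool's G-to-A or C-to-T sites peak near 0.5. Those of pep1-1 peak between 0.3 and 0.35.

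Set beside the other one-library sites, without a test, the members had low frequencies in both libraries and the difference was wider in the pool. The median allele frequency was 0.265 for members and 0.491 for mutagen-type sites in the pool (interquartile range of the mutagen-type sites 0.409 to 0.581), with median coverages of 39 and 66 reads. In the progenitor it was 0.3 for members and 0.37 for mutagen-type sites, with median coverages of 29 and 41 reads. Changes at A or T and G-C swaps had medians from 0.364 to 0.44 in the pool and from 0.411 to 0.449 in pep1-1. Their median coverages ran from 79.5 to 114 reads in the pool and from 75.5 to 100 reads in pep1-1, so depth moved with type.

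Members were most of the one-library sites between 20 and 49 reads in both libraries. Below that they were 14.3% in the pool (9 of 63 sites, 10 to 19 reads) and 67.4% in pep1-1 (122 members), and over all sites under 60 reads 50.3% in the pool (47.4 to 53.3%) and 74.3% in pep1-1 (71.1 to 77.2%). In the pool they were 82.5% of one-library sites at 30 to 39 reads (241 members), 12.5% at 50 to 59 reads (43 members) and 2.20% at 60 to 79 reads (16 members). In the progenitor they were 80.5% at 30 to 39 reads (161 members), 37.1% at 50 to 59 reads (13 members) and 18.5% at 60 to 79 reads (15 members). Members under 60 reads made up 88.7% of the pool's (86.0 to 90.9%) and 91.3% of those of pep1-1 (88.9 to 93.3%).

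Between 20 and 59 reads the members' number of alternative reads stayed small and their median frequency was lower in each deeper bin. Members had passed a quality minimum, and quality depends on the alternative reads. This pattern, and the likeness of the 2 libraries in it, are therefore not independent of the rule. Pool members had a median of 8 alternative reads at 20 to 29 reads, 9 at 30 to 39, 11 at 40 to 49 and 12 at 50 to 59. Their median allele frequency over the same bins was 0.308, 0.263, 0.244 and 0.235. Progenitor members had medians of 8, 9, 11 and 12 alternative reads, and of 0.3, 0.273, 0.25 and 0.24 in allele frequency. In these 4 bins the median number of alternative reads was the same in both libraries, while at 10 to 19 reads it was 6 in the pool and 5 in pep1-1, and at 60 to 79 reads 18 in the pool and 26 in pep1-1. Other one-library sites of the pool stood at 0.379, 0.29, 0.431 and 0.5 in these bins, and those of the progenitor at 0.347, 0.308, 0.365 and 0.47. Among these 4 bins of the pool, members and other sites were closest between 30 and 39 reads, where their medians were within 0.03 of each other.

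**Figure D3:**
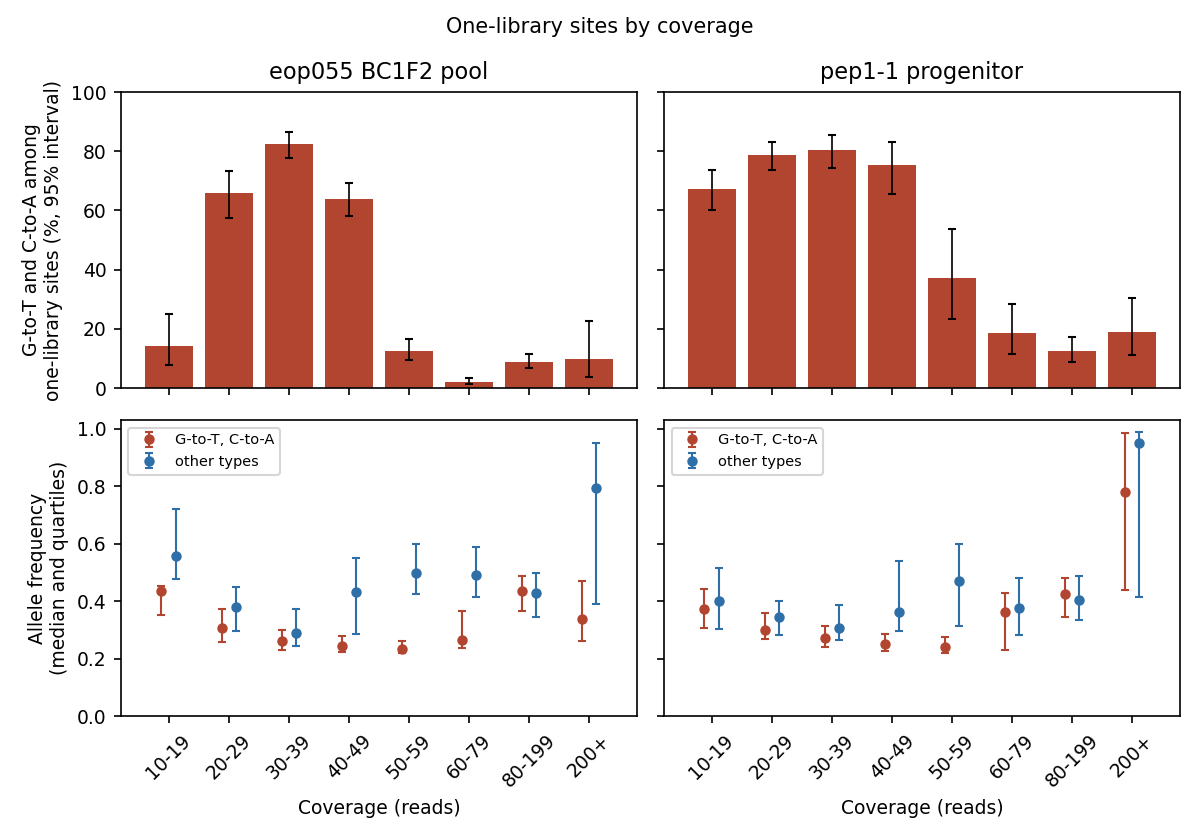
One-library sites by coverage bin, in the pool (left) and the progenitor (right). Top, share of G-to-T and C-to-A among them (%, bars, with 95% Wilson intervals). Bottom, median allele frequency with quartiles of members (red) and of the other types (blue). The 2 medians lie close between 80 and 199 reads in both libraries, and in pep1-1 also between 60 and 79 reads.

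The few members with 80 reads or more had allele frequencies above those of members with 20 to 59 reads. Between 80 and 199 reads their median allele frequency was 0.436 in the pool (51 members) and 0.427 in pep1-1 (28 members), beside 0.43 for 528 other one-library sites in the pool and 0.405 for 197 in pep1-1. Of these deeper members, 16 in the pool (31.4%) and 11 in pep1-1 (39.3%) were called below 0.5, beside 36.0% of the other one-library sites of that depth in the pool and 43.1% in pep1-1. At 200 reads or more there were 4 members in the pool, with a median of 0.340, and 12 in pep1-1, with a median of 0.779. Members of 80 or more reads had another listed site within 100 bases at 50 of 55 positions in the pool and 38 of 40 in pep1-1. Other sites of that depth were not counted, so this cannot be called particular to members. At all depths it was 70.8% in the pool and 71.0% in pep1-1 for G-to-T and C-to-A sites listed in both. For other one-library sites it was 27.6% in the pool and 69.5% in pep1-1.

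The deepest pool members were C17733403A on chromosome 4, C48167362A on chromosome 7 (139 of 476 reads, 0.292) and C14070421A on chromosome 2 (219 of 303 reads, 0.723). The deepest pep1-1 members were C21300700A on chromosome 4 (4443 of 4509 reads, 0.985), G18636729T on chromosome 6 (4093 of 4130 reads, 0.991) and G12827184T on chromosome 6 (3808 of 3858 reads, 0.987). Of the pep1-1 members at 0.9 or more, 7 in all, 6 had 2026 reads or more and the other, G13029990T on chromosome 3, had 18 of 18 reads. These 6 lay on chromosome 4 and, in 5 cases, on chromosome 6, and each had another listed site within 30 bases. G18636604T, C18636596A and C18635321A, with G18636729T, fell within 1.5 kb of each other on chromosome 6 and were named after their values were seen.

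No pool member reached 0.9, which allows a share of up to 0.478% at a count of 0 of 628. Among members of ordinary depth, 20 to 200 reads, 0 of 615 in the pool (up to 0.488%) and 0 of 499 in pep1-1 (up to 0.601%) did. The rule had left out alleles listed in both libraries, fixed ones included. The highest pool members in this depth range were G23604702T on chromosome 8 at 0.603 (0.530 to 0.672, 179 reads), G43998666T on chromosome 7 at 0.569 (72 reads) and C42731338A on chromosome 7 at 0.561 (98 reads). G36122563T on chromosome 2 stood at 0.551 (118 reads) and G19439902T on chromosome 8 at 0.543 (116 reads). The intervals of these other 4 included 0.5.

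In the progenitor the highest were C18638376A on chromosome 6 at 0.815 (22 of 27 reads, 0.633 to 0.918), C13024899A on chromosome 3 at 0.667 (28 of 42 reads) and C27634375A on chromosome 6 at 0.65 (13 of 20 reads). C34014060A on chromosome 2 followed at 0.645 (20 of 31 reads) and G13194153T on chromosome 7 at 0.642 (86 of 134 reads). C18638376A lay near the very deep sites of chromosome 6. Across all depths, 2 pool members (0.318%, 0.0874 to 1.15%) and 17 pep1-1 members (2.69%, 1.68 to 4.26%) exceeded 0.6.

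Members with strong support were few under the criteria used. A quality of at least 100, a coverage of 20 to 200 reads and an allele frequency of at least 0.4 were met by 9 pool members (1.43%, 0.756 to 2.70%) and 9 pep1-1 members (1.42%, 0.750 to 2.68%). The share of other sites that met these criteria was not counted. The median quality was 42.5 for members and 144 for other one-library sites in the pool, and 38.5 and 42.5 in pep1-1. The like shares of the 2 libraries therefore stand beside unlike backgrounds. In the pool, C19204310A on chromosome 4 had 89 of 174 reads, C12828114A on chromosome 1 had 61 of 140, C14582562A on chromosome 4 had 65 of 138 and C6017383A on chromosome 4 had 79 of 147. G14131138T on chromosome 2 had 47 of 106 reads and C18332684A on chromosome 5 had 20 of 49. These 6 and G24187348T on chromosome 7 (32 of 69 reads) had another listed site within 100 bases. The other 2 stood alone: G43998666T on chromosome 7, with 41 of 72 reads and the nearest listed site 9896 bases away, and G12592052T on chromosome 7, with 37 of 79 reads and 1144 bases.

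In the progenitor, 6 of the 9 had no other listed site within 1 kb. They were G12375925T (30 of 75 reads), G32542389T (32 of 58 reads) and C51236391A (15 of 26 reads) on chromosome 4, G17518012T on chromosome 7 (35 of 74 reads), G36827572T on chromosome 8 (12 of 25 reads) and C27838882A on chromosome 3 (13 of 27 reads). C2058430A on chromosome 1 (38 of 65 reads), C13695867A on chromosome 8 (77 of 141 reads) and C34014060A on chromosome 2 had a neighbour within 100 bases. The allele frequency of the 9 ran from 0.408 to 0.569 in the pool and from 0.4 to 0.645 in pep1-1. No interval of these 18 sites excluded 0.5, but the criterion of at least 0.4 limited how far below it they could lie. With an allele frequency of 0.3 as the limit 16 pool members met the criteria. With a quality of 50 as the limit 35 pool and 50 pep1-1 members did.

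Well-supported G-to-T and C-to-A changes existed among the sites listed in both libraries. Of 739 such sites past the minimums in both, 36 (4.87%) stood at 0.9 or more in both, 16 of them with 20 to 200 reads in each. C513978A on chromosome 2 had 186 of 188 reads in the pool and 96 of 96 in pep1-1. G1928T on chromosome 5 had 167 of 170 reads in the pool and 74 of 75 in pep1-1, and C18589554A on chromosome 2 had 77 of 77 in the pool and 38 of 38 in pep1-1. No member combined such a frequency with 20 to 200 reads. Members had to be absent from the other list, so this lack is not independent of the rule. Of the other types past the minimums, with 20 to 59 reads and 0.9 or more, 319 of 320 pep1-1 sites were in both lists. In the pool 296 of 312 were, and 16 were one-library sites. The lack in pep1-1 therefore cannot be called particular to G-to-T and C-to-A, and the difference in the pool was not tested.

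Low-frequency G-to-T and C-to-A calls also recurred at the same positions in both libraries, and those sites are not members. Among sites of 20 to 59 reads and an allele frequency under 0.4, these types made up 785 of 981 in the pool (80.02%) and 601 of 747 in pep1-1 (80.5%). Of the 785, 258 were listed with the same base in pep1-1 (32.9%, 29.7 to 36.2%), and of the 601, 192 were so in the pool (31.9%, 28.3 to 35.8%). The share of the other types in the same range that was listed in both was 15.8% of 196 in the pool (11.4 to 21.6%) and 37.0% of 146 in pep1-1 (29.6 to 45.1%).

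Where both lists passed the minimums, with an allele frequency under 0.4 and fewer than 60 reads in each, there were 95 G-to-T and C-to-A sites and 8 sites of all other types. The 95 sites had a median allele frequency of 0.275 in the pool and 0.3125 in pep1-1. Their median number of alternative reads was 9 in each. The 8 sites of other types had median frequencies of 0.266 in the pool and 0.317 in pep1-1, with 7.5 and 8.5 alternative reads. The limits of frequency, depth and quality constrain these values, so their closeness to those of the members is not independent of the selection. The depth of the other library at a member's position is unknown, since the lists give no entry for the reference base.

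The rule did not use the place along chromosomes 1 to 8, apart from removing positions in the other list. In the pool the members' medians were low on every chromosome: they ran from 0.245 on chromosome 3 to 0.28 on chromosome 5, and stood at 0.25 on chromosome 8 (110 members, interquartile range 0.228 to 0.308). On the 7 other chromosomes together the median was 0.268 (518 members). Mutagen-type pool sites had a median of 0.833 on chromosome 8 (223 sites) and 0.468 elsewhere (1116 sites). Between 35 and 43 Mb of chromosome 8 the 27 pool members had a median of 0.263 and a highest value of 0.438, beside a median of 0.909 for 32 mutagen-type sites. In the progenitor the members' median was 0.286 on chromosome 8 (107 members) and 0.303 elsewhere (526 members). The raised frequency of mutagen-type sites on chromosome 8 was thus not seen among members, a description without a test.

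**Figure D4:**
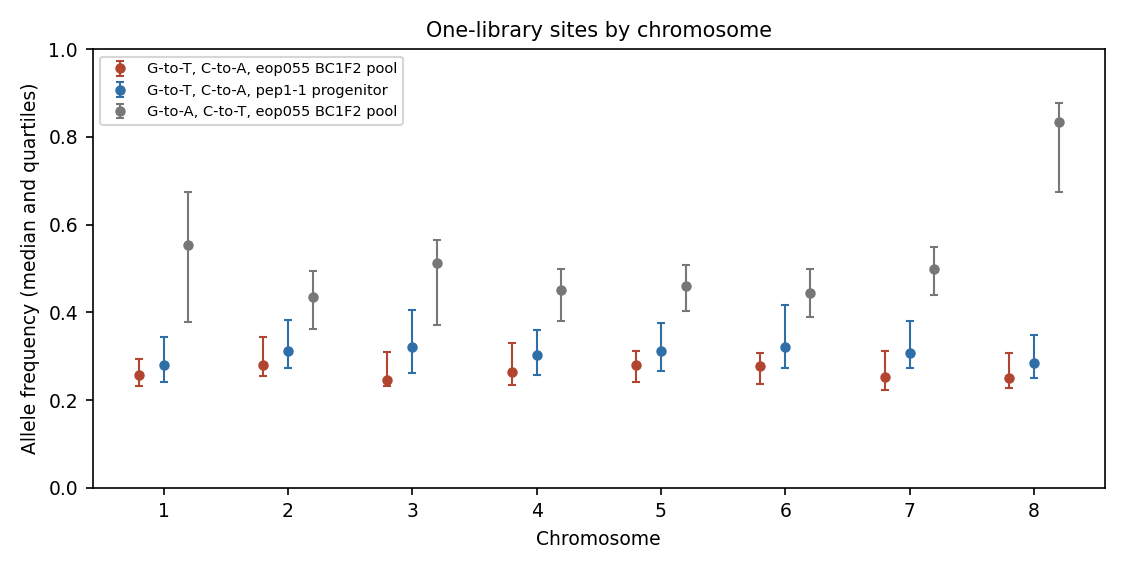
Median allele frequency with quartiles by chromosome, for members in the pool (red), members in pep1-1 (blue) and one-library G-to-A or C-to-T sites in the pool (grey). Member medians stay between 0.245 and 0.32 on all chromosomes in both libraries, while the grey point of chromosome 8 stands at 0.833.

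Members were spread over all chromosomes. Their density, over the span to the last listed position, ran from 1.62 members per Mb on chromosome 7 to 2.93 on chromosome 1 in the pool, and from 1.44 on chromosome 7 to 2.36 on chromosome 1 in pep1-1. In 66 bins of 5 Mb the counts of the 2 libraries were correlated at a Pearson r of 0.480 and a Spearman rho of 0.463, and in 315 bins of 1 Mb at 0.181 and 0.165. Bins share the assembly and its alignable length, and are not independent.

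The fullest bins of 1 Mb held 9 pool members, on chromosome 1 from 21000001 to 22000000, where pep1-1 had 8, and on chromosome 3 from 29000001 to 30000000, where pep1-1 had 0. The fullest in pep1-1, on chromosome 2 from 14000001 to 15000000, held 10 pep1-1 members, at a median coverage of 105 reads, and 5 pool members. The rule removed shared positions, so only nearby ones could be counted: a pool member lay within 100 bases of a pep1-1 member at 1 of 628 positions and within 1 kb at 5. The same count was not made for other sites, so these numbers cannot be read as few or many.

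G-to-T and C-to-A were listed about equally often. The listed change was G-to-T at 325 of 628 pool members (51.8%, 47.8 to 55.6%) and at 315 of 633 pep1-1 members (49.8%, 45.9 to 53.6%). The median allele frequency was 0.267 for G-to-T and 0.265 for C-to-A in the pool, and 0.308 for G-to-T and 0.294 for C-to-A in pep1-1. Chromosome 3 had the lowest share of G-to-T in each library, 34.3% of 67 members in the pool (24.1 to 46.3%) and 39.4% of 71 members in pep1-1 (28.9 to 51.1%). It was noticed among 8 chromosomes after the values were seen.

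Most members had no other listed site within 1 kb, though most had one within 10 kb. Another listed site, of either list, lay within 1 kb of 23.2% of pool members (20.1 to 26.7%) and 27.3% of pep1-1 members (24.0 to 30.9%), and within 10 kb of 53.2% of pool members and 59.4% of pep1-1 members. Among members of 80 or more reads, 94.5% in the pool and 97.5% in pep1-1 had one within 1 kb, and other sites of that depth were not counted. For mutagen-type one-library sites of all depths the share within 1 kb was 17.0% in the pool (15.1 to 19.1%) and 63.0% in pep1-1 (56.6 to 68.9%). For G-to-T and C-to-A sites listed in both, again of all depths, it was 76.7% in the pool (73.9 to 79.3%) and 76.9% in pep1-1 (74.1 to 79.5%). Among members under 60 reads the share was 15.3% in the pool (12.5 to 18.5%) and 21.97% in pep1-1 (18.8 to 25.5%). For the G-to-T and C-to-A sites listed in both, under 60 reads, it was 29.9% in the pool (25.0 to 35.4%) and 32.3% in pep1-1 (27.3 to 37.8%).

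Most closely neighbouring members were listed with the same change. Pairs of adjacent members within 10 bases numbered 4 in the pool, of which 3 were of 1 type, and 9 in pep1-1, of which 7 were. With fewer than 60 reads at both sites, all 3 such pairs in the pool and all 6 in pep1-1 were of 1 type. G7511249T and G7511251T on chromosome 1 of the pool had 8 of 40 and 7 of 37 reads, and G2700418T and G2700420T on chromosome 6 had 12 of 51 reads each. C12888376A and C12888381A on chromosome 5 of pep1-1 had 8 of 29 and 7 of 28 reads. These pairs were picked out once their values were known. Whether the same reads carry both changes was not tested.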

How the data were processed

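Variants came as 1 list of single-base changes per library, and the sheet name, which holds the genotype, tied each list to its sample. Bowtie2, SAMtools and DESeq are named in the submitters' processing notes; their versions and roles, the genome build and the filters are not stated in the sources used here. The deposited column headed reads was read as a variant quality score (values from 3.01 to 225.009, not whole), and the deposited column headed quality as the count of alternative reads. The deposited allele frequency is a fraction. Coverage was the count over the fraction, rounded; it gave the listed fraction within 5e-05 at all 14923 pool and 14029 progenitor sites. Positions count along the authors' assembly, and genes at them were not analysed here. The members, comparison sets and limits were chosen with earlier results of these data known. Named sites were, per library, the 5 of highest allele frequency at 20 to 200 reads, the 3 deepest, the 3 of lowest allele frequency, the 3 nearest the median, the well-supported ones, and those at the edges of the minimums. Exact binomial tests were two-sided, on each library's own sites, and were tested on simulated data. Medians and shares of sets were compared without a test, since sites of 1 library are not replicates. Intervals and the limits for a count of 0 (3 counts) cover counting error only; PCR duplicates were not distinguishable. Alternatives varied the minimums of quality and coverage, a maximum of coverage, the subtraction of the other list, unplaced sequences, the adjustment, and the limits of frequency, support and distance. Scripts ran under Python 3.11.15, with scipy 1.17.1 and statsmodels 0.14.6 for tests, pandas 2.3.3 and numpy 2.4.6 for tables, and matplotlib 3.10.9 for figures.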

Additional observations from a re-analysis of the deposited data

How the results depend on the processing

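Of 162 values under alternatives, over 22 results, 97 stayed near the value reported and 65 moved. Near meant counts within 1.5 times, and shares and medians within their 95% interval, and reversals were not scored. Of the 162, 18, on chromosome 8 and on recurrence, were chosen after seeing the data. No paired analysis was possible because the groups, of 1 library each, share no replicates. In the pool, no quality minimum gave 1503 members, a median allele frequency of 0.227 (chromosome 8: 0.2195), 34.6% of one-library sites and 1204 called below 0.5. A minimum of 35 gave the pool medians of 0.282 (chromosome 8: 0.282), 21.0% of one-library sites and 261 called below. A minimum of 50 gave it 209 members, a median of 0.310 (chromosome 8: 0.309), 12.8% of one-library sites, 82.3% under 0.4, 91 called below and 32.1% with another listed site within 1 kb. In pep1-1, no quality minimum gave 1687 members, a median of 0.25 (chromosome 8: 0.25), 50.7% of one-library sites, 88.7% under 0.4, 882 called below and 26.6% of thin low-frequency sites in both lists. A minimum of 35 gave pep1-1 386 members, a median of 0.333 (chromosome 8: 0.314), 73.3% under 0.4, 111 called below, 31.1% near another site and 37.6% in both lists. A minimum of 50 gave it 203 members, a median of 0.364 (chromosome 8: 0.349), a median coverage of 31, 51.3% of one-library sites, 65.0% under 0.4, 45 called below, 54.7% G-to-T and 36.0% near another site. A coverage minimum of 20 gave pep1-1 a median of 0.290, a coverage of 32 and 84.5% under 0.4. A coverage maximum of 100 gave 28.5% of one-library sites, 94.1% under 0.4 and 18.75% near another site in the pool, and 63.2%, 83.1% and 23.6% in pep1-1. With the other list held to the same minimums, 27.2% of pool and 31.1% of pep1-1 members were near another site, the pool had 16 well-supported members, and pep1-1 had 47.9% of one-library sites and 75.7% under 0.4; with unplaced sequences the pep1-1 share of one-library sites was 52.0%. Below 0.3 lay 67.4% of pool and 49.3% of pep1-1 members. Bonferroni adjustment left 8 pool and 9 pep1-1 calls below 0.5, for which no share of all sites was computed. Well-supported members numbered 16 in the pool from a frequency of 0.3, and from a quality of 50, 35 in the pool and 50 in pep1-1. Another site lay within 100 bases of 18.5% of pool and 22.4% of pep1-1 members, and within 10 kb of 53.2% of pool and 59.4% of pep1-1 members. The median allele frequencies were higher at each higher quality minimum tried in both libraries. Quality depends on the alternative reads, so this rise is not independent of the minimum, and its cause was not tested.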
